A study of Mus musculus with 12 samples.

Results

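The comparison described here set 4 libraries labelled HT-DNA or cGAMP against 4 labelled mock or hpRNA, 8 of the 12 libraries of the series. Members were chosen by the sample titles, each of which ends in a 1 or a 2, and this number was kept as a block, so that libraries were compared within number 1 and within number 2. All 8 libraries were of L929, an established mouse fibroblast line. Cells labelled mock had no treatment, those labelled HT-DNA or hpRNA were transfected with the material of that name, and those labelled cGAMP were stimulated with cGAMP. RNA was taken 6 hours after transfection, and polyadenylated RNA was sequenced. Each label had 2 libraries. The labels speak of duplicate transfections, and nothing further is known of whether the cultures were separate, so that errors and p-values measure the spread between libraries, which may be technical. Names of stimuli are spelled as in the labels and not expanded, and the tag for treatment of the cGAMP libraries does not name transfection.

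The biology behind these labels is that of cytosolic nucleic acid sensing. DNA in the cytosol binds the enzyme cGAS, which makes the second messenger cGAMP, and cGAMP binds the membrane protein STING (gene symbol Tmem173 here). STING signals through the kinase TBK1 to the transcription factor IRF3 and to NF-kB, and the Ifnb1 gene is switched on. RNA in the cytosol is read by RIG-I (Ddx58) and MDA5 (Ifih1), which reach the same factors through the adaptor MAVS. Secreted interferon-beta then acts on its receptor, and signalling from the receptor induces a large set of interferon-stimulated genes.

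The pooling of labels was chosen by measured values of these libraries and not by their treatment. A noise ratio was computed for each pair of libraries. It takes, over genes with a pair total of 100 counts or more, the median squared difference in counts relative to what counting noise gives, and it is 1 for counting noise alone. HT-DNA 1 and cGAMP 1 had a ratio of 1.55, and HT-DNA 2 and cGAMP 2 one of 1.77. Mock 1 and hpRNA 1 had a ratio of 1.84, and mock 2 and hpRNA 2 one of 1.68. Between the pooled arms the ratios were 6.81 to 8.09 within number 1 and 2.80 to 3.63 within number 2. Since the arms were selected on how alike these libraries were across all genes, counts of genes called between the arms are given as a description, and nothing is supported with them. A p for a gene called between the arms is printed only where leaving out a library ended the call.

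The libraries labelled mock 2 and hpRNA 2 stood apart from mock 1 and hpRNA 1, and this has to be read before any result. The 2 libraries of one label had ratios between 3.32 (HT-DNA) and 8.44 (mock). HT-DNA 1 and cGAMP 1 were closer to mock 2 and hpRNA 2, at ratios of 1.93 to 2.29, than to mock 1 and hpRNA 1. The difference was plain in interferon-induced GTPases, a list of 19 genes. Their summed level, as CPM (counts per 1000000 of the library total), was 17.9 in mock 1 and 19.7 in hpRNA 1. It was 236 in HT-DNA 1 and 263 in cGAMP 1, then 727 in mock 2 and 627 in hpRNA 2, and 1880.5 in HT-DNA 2 and 1971 in cGAMP 2. The library labelled mock 2 thus held more of these transcripts than those labelled HT-DNA 1 and cGAMP 1. Of 76 tested members of a list of interferon-stimulated antiviral effectors, 74 (97.4%) were higher in both mock 2 and hpRNA 2 than in both HT-DNA 1 and cGAMP 1, against 21.2% of all genes tested. The labels do not say what the number marks, and its part in the results was not tested. Whether titles were exchanged between libraries was not tested either, and every value of one arm against the other holds only for the libraries as labelled. Values are therefore given for every library, and libraries are called by their labels throughout.

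**Figure D1:**
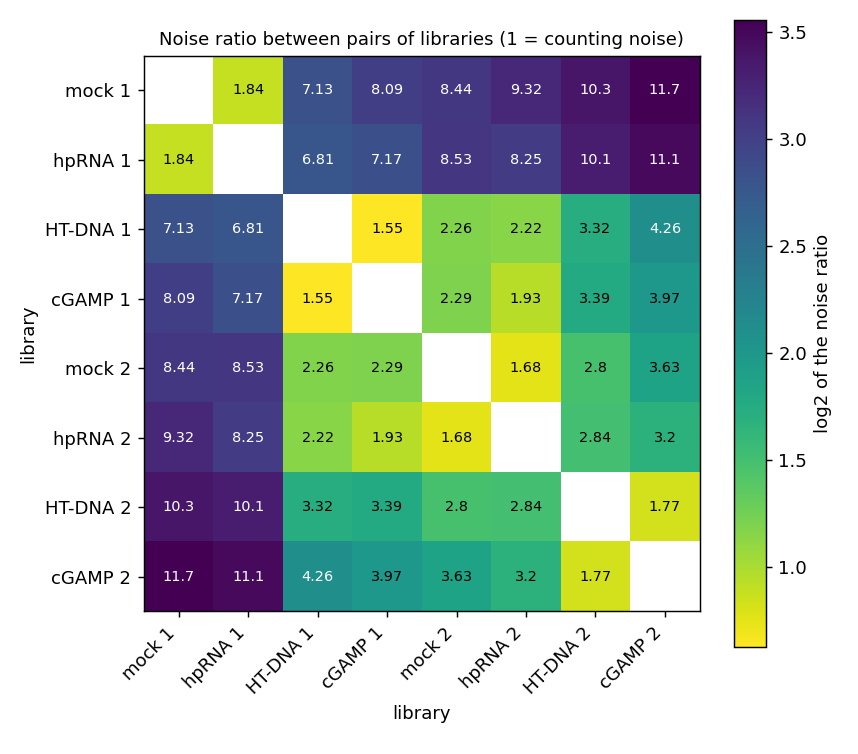
Noise ratio for each pair of the 8 libraries, with libraries on both axes and 1 standing for counting noise alone; the colour is the log2 of the ratio. The 4 lowest cells (1.55 to 1.84) join the labels that were pooled, and the cells joining HT-DNA 1 or cGAMP 1 with mock 2 or hpRNA 2 (1.93 to 2.29) lie below those joining them with mock 1 or hpRNA 1 (6.81 to 8.09).

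Total counts of the 8 libraries ran from 15579347 to 18912400, the genes detected from 21635 to 22550, and mitochondrial transcripts took 2.07% to 2.52% of the counts. The label of a fibroblast line was checked against 15 fibroblast markers. Of these, 11 stood above 5 CPM in all 8 libraries, among them Col1a1, Col1a2, Sparc and Vim, while Dcn and Twist1 had 0 counts in all 8 and Thy1 and Lum were at most 0.492 and 0.0615 CPM. Of 27 markers of other cell types, 20 were at most 1 CPM in every library, with Cd3e at 0 counts. The summed level of these 27 lay between 95.8 and 122 CPM, most of it from the lysosomal gene Cd68, at 68.9 to 92.5 CPM. Des, another marker on this list, stood at 20.5 to 26.4 CPM, and these 2 were above 5 CPM in all 8 libraries.

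Of 13844 genes tested, edgeR's quasi-likelihood fit with the number as a block called 367 genes higher (2.65%) and 226 lower (1.63%) in HT-DNA and cGAMP, at a Benjamini-Hochberg adjusted p under 0.05. The largest changes were those of interferon response genes, all of them higher. The median log2 change was 0.45 for genes called higher and -0.29 for those called lower, against 0.00 for all genes tested. A log2 change over 1 was seen for 90 genes called higher, and one under -1 for 6 called lower. These counts rest on the form of the fit: edgeR called 0 genes in either direction with no replicate block (1120 at an unadjusted p under 0.05) and 0 in a fit of all 12 libraries with the block (442 at an unadjusted p under 0.05), while terms for each arm and number gave 1731 higher and 1372 lower. Scaling moved the split, since upper quartile scaling in place of TMM gave 288 higher and 375 lower. The last gene inside the threshold was Map3k5, a stress kinase gene, with a log2 fold change of -0.19, and the first outside was Trim30a, an interferon-stimulated gene, at 1.47.

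A gene was counted as set apart when both HT-DNA and cGAMP libraries lay beyond both mock and hpRNA libraries, within number 1 and again within number 2. This held upward for 1330 genes (9.61%) and downward for 1163 (8.4%). With library totals in place of TMM the balance turned around, to 928 upward and 1688 downward, and without the filter on low counts there were 1438 and 1503. Opposite directions in the numbers were nearly as frequent. Beyond the other arm upward in number 1 and downward in number 2 were 1012 genes, and the reverse held for 1007. Of the called genes, 362 of 367 higher and 224 of 226 lower were set apart in both numbers, which follows in part from the fit. The counts called rested on number 1 most. Without hpRNA 1 there were 194 higher and 65 lower, without HT-DNA 1 there were 199 and 61, without cGAMP 1 there were 203 and 74, and without mock 1 there were 219 and 85. Without cGAMP 2, 145 were lower.

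The log2 fold change within one number is called a step here. The size of the step differed between the numbers for many genes. The interaction of arm and number passed edgeR's adjusted p for 2704 genes (19.5%). Its spread is that between the 2 labels pooled in each arm and number, the very labels chosen for being close. Its error is therefore kept small by that choice, so calls of a difference between numbers are given as a description and without a p. Over all genes tested, edgeR called 2119 higher and 1960 lower within number 1, and 719 and 457 within number 2. These counts carry the same limit, and the excess in number 1 is not particular to any list here. Of the genes called higher over both numbers, 249 of 367 had the smaller change in number 2. The matching share over all genes was not computed. All 4 libraries of number 2 lay above all 4 of number 1 for 259 of the genes called higher (70.6%), against 7.95% of all genes tested. For the genes called lower, 102 (45.1%) were lower in all 4 libraries of number 2 than in all of number 1, against 6.65% of all genes tested.

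**Figure D2:**
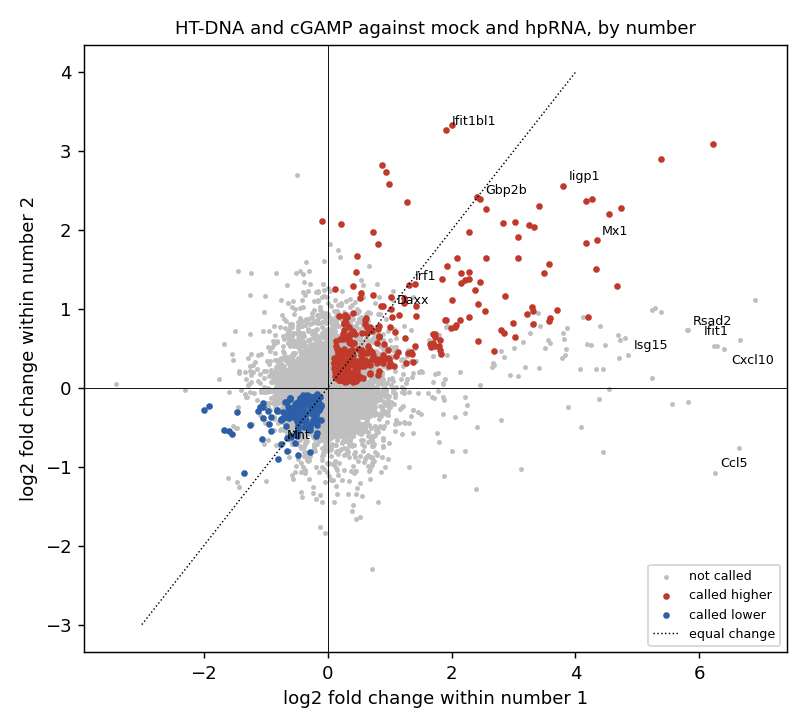
Each point is one of the 13844 genes tested, with its log2 fold change of HT-DNA and cGAMP against mock and hpRNA within number 1 on the x axis and within number 2 on the y axis; red genes were called higher and blue ones lower. The named genes Daxx, Irf1 and Gbp2b lie on the dotted line of equal change, while Ifit1, Isg15, Rsad2 and Cxcl10 lie far to the right of it and were not called.

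Interferon genes come first in the pathway. Ifnb1 (ENSMUSG00000048806, chr4:88522025-88522774, minus strand, mm10) encodes interferon-beta. It had 0 counts in mock 1 and hpRNA 1, and stood at 0.687 CPM in HT-DNA 1 and 0.384 in cGAMP 1. In number 2 it stood at 1.86 CPM in mock 2, 0.623 in hpRNA 2, 11.5 in HT-DNA 2 and 9.37 in cGAMP 2. HT-DNA and cGAMP libraries were the higher ones in both numbers, but mock 2 exceeded HT-DNA 1, and hpRNA 2 fell between HT-DNA 1 and cGAMP 1. Within number 1 the mean was at least 3.01-fold higher, taking 3 counts per library as the floor for the libraries at 0. Within number 2 the log2 fold change was 3.09 ± 0.28 (SE). Of 19 type I and type III interferon genes on the list, 2 passed the filter on low counts, and both were called higher. The other one, Ifna4, was at 0.058 CPM or less in mock 1 and hpRNA 1, and had a log2 fold change of 2.31 ± 0.27 within number 2. Both genes were at or near 0 in mock 1 and hpRNA 1 and could pass the filter only through other libraries, so this count of 2 gives no support. In bulk RNA, fewer cells making a transcript and less of it per cell cannot be told apart, which holds for every level here.

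GTPases induced by interferon, which bind and disrupt the vacuoles and membranes of intracellular pathogens, were the list with the highest share called after the interferon genes. Of 19 members 16 were tested, and 14 of these were called higher and 0 lower, against 2.65% and 1.63% of all genes tested. All 16 were set apart upward in both numbers, against 9.61% of all genes tested. Their median log2 fold change was 3.53 within number 1 and 1.54 within number 2, against -0.00 and 0.00 for all genes tested. Iigp1, an immunity-related GTPase, stood at 1.09 CPM in mock 1, 2.19 in hpRNA 1, 22.2 in HT-DNA 1 and 23.7 in cGAMP 1. In number 2 it stood at 119.7 CPM in mock, 93.8 in hpRNA, 604 in HT-DNA and 654 in cGAMP. The arms did not overlap within a number, and the 4 libraries of number 2 lay above all of number 1. Its log2 fold change was 3.80 ± 0.21 in number 1 and 2.56 ± 0.07 in number 2.

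The other leading GTPases had the same order of libraries. Ifi47 ranged from 0.403 CPM in mock 1 to 4.33 in cGAMP 1, and from 15.9 in hpRNA 2 to 74.4 in cGAMP 2. Gbp2, a guanylate-binding protein gene, ranged from 0.173 CPM in mock 1 to 2.79 in cGAMP 1 and from 6.34 in hpRNA 2 to 35.6 in cGAMP 2. Gbp4 had 0 counts in mock 1 and hpRNA 1, 9 in HT-DNA 1 and 2 in cGAMP 1. Its being set apart in number 1 thus rests on very few counts. Within number 2 its log2 fold change was 2.90 ± 0.21. Tgtp1 and Tgtp2, a pair of near-identical T-cell-specific GTPase genes whose reads could be split between them, rose by 2.42 ± 0.17 and 2.15 ± 0.19 on the log2 scale over both numbers. For Tgtp1 the change was 2.41 ± 0.63 in number 1 and 2.42 ± 0.17 in number 2. Irgm1, Irgm2 and Igtp, which were named after their values were seen, had changes of 3.57, 4.67 and 4.33 in number 1 and of 0.85, 1.30 and 1.51 in number 2. Gbp2 and Gbp2b are close relatives as well, and their values carry the same doubt.

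**Figure D3:**
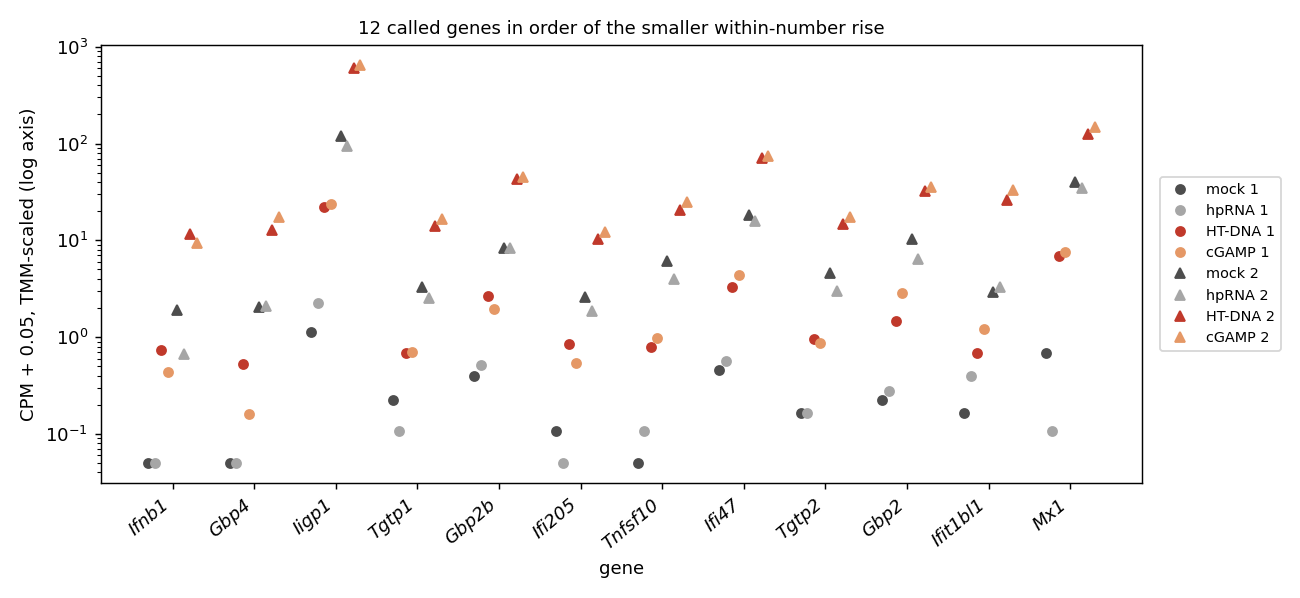
Level of 12 genes called higher, as CPM + 0.05 on a log axis, taken in order of the smaller of their 2 steps and leaving out predicted genes, annotated pseudogenes (such as Cxcl11, a polymorphic pseudogene in GENCODE) and genes under 5 CPM in the higher arm, with 1 point per library (circles for number 1, triangles for number 2). For Iigp1 the circles of mock and hpRNA lie at 1.09 and 2.19 CPM and those of HT-DNA and cGAMP at 22.2 and 23.7, below the triangles of mock and hpRNA at 119.7 and 93.8.

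Among the named genes, Daxx, Irf1, Slfn9 and Gbp2b are described in full because their steps were nearly the same in both numbers while their starting levels differed. They were not the only such genes, as Tgtp1 had steps of 2.41 and 2.42. The difference between numbers was called for 156 of the 367 genes called higher and 50 of the 226 called lower, against 19.5% of all genes tested. A gene without such a call need not have near-equal steps. Daxx (ENSMUSG00000002307, chr17:33909414-33915590, plus strand), which encodes a nuclear chaperone of histone H3.3, stood at 36.0 CPM in mock 1 and 34.5 in hpRNA 1, and at 71.2 in HT-DNA 1 and 72.8 in cGAMP 1. In number 2 it stood at 139.9 CPM in mock, 126 in hpRNA, 263 in HT-DNA and 268 in cGAMP. Each arm was tight within a number, and the step between arms had the same height on the log2 scale, 1.03 ± 0.06 in number 1 and 1.00 ± 0.04 in number 2. Irf1 (ENSMUSG00000018899, chr11:53770014-53778374, plus strand), the gene of a transcription factor that interferon-gamma and NF-kB induce, stood at 14.4, 13.6, 31.5 and 38.6 CPM in mock 1, hpRNA 1, HT-DNA 1 and cGAMP 1. It stood at 61.5, 58.4, 149 and 147 CPM in mock 2, hpRNA 2, HT-DNA 2 and cGAMP 2. Its changes were 1.32 ± 0.09 and 1.30 ± 0.06. Slfn9 (ENSMUSG00000069793, chr11:82978390-82991830, minus strand), a Schlafen family gene, rose from 57.1 and 53.6 CPM in mock 1 and hpRNA 1 to 96.9 and 99.3 in HT-DNA 1 and cGAMP 1. In number 2 it stood at 210.2 CPM in mock, 179.7 in hpRNA, 338 in HT-DNA and 336 in cGAMP, and its changes were 0.83 ± 0.06 and 0.79 ± 0.05. Gbp2b (ENSMUSG00000040264, chr3:142594847-142619179, plus strand) had changes of 2.46 ± 0.32 and 2.39 ± 0.10, from 0.345 and 0.461 CPM in mock 1 and hpRNA 1 and from 8.36 and 8.38 in mock 2 and hpRNA 2. For these 4 genes the difference between the numbers was at most 0.08 in size and was not called. Since they were picked for near-equal steps, this was fixed by the choice. The lack of a call does not show that the changes were equal.

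Ifit1, Isg15 and Rsad2, antiviral genes of the same pathway, had unequal steps. Ifit1 (ENSMUSG00000034459, chr19:34640871-34650009, plus strand), whose product binds foreign RNA caps, stood at 2.13 CPM in mock 1 and 2.31 in hpRNA 1, against 155 in HT-DNA 1 and 181 in cGAMP 1. In number 2 it was 493 CPM in mock, 446 in hpRNA, 675 in HT-DNA and 684 in cGAMP. All 4 HT-DNA and cGAMP libraries exceeded their own number's mock and hpRNA, by 6.24 ± 0.11 in number 1 and 0.53 ± 0.05 in number 2. Isg15 (ENSMUSG00000035692, chr4:156199424-156200818, minus strand), the gene of a ubiquitin-like modifier, was 3.17, 2.77, 77.5 and 94.0 CPM in mock 1, hpRNA 1, HT-DNA 1 and cGAMP 1. It was 219, 196, 266 and 290.4 CPM in the same labels of number 2. Rsad2 (ENSMUSG00000020641, chr12:26442746-26456452, minus strand), which encodes viperin, was 3.45, 3.69, 184 and 217 CPM in number 1 and 756, 674, 1149.8 and 1218 CPM in number 2. Isg15 had steps of 4.85 ± 0.13 and 0.42 ± 0.06, and Rsad2 of 5.81 ± 0.10 and 0.73 ± 0.06. None of these 3 genes was called over both numbers, since a single change per gene leaves their unequal steps in the error: the log2 fold changes were 2.49 ± 0.88, 1.89 ± 0.64 and 2.62 ± 0.82. For each of the 3 genes the difference between numbers was called, and the arms lay apart in the same direction in both.

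**Figure D4:**
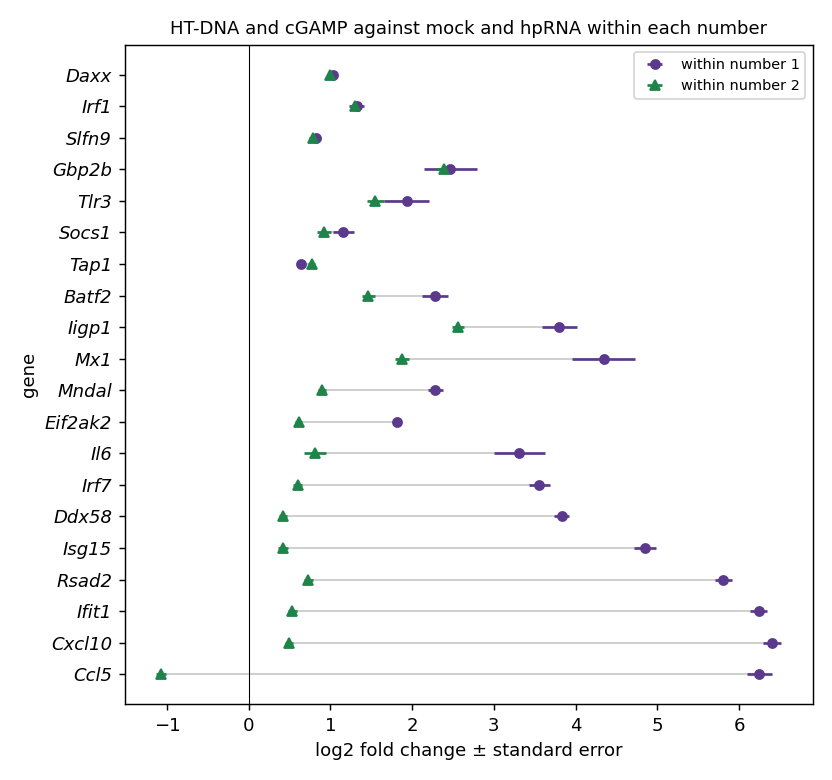
Log2 fold change of HT-DNA and cGAMP against mock and hpRNA within number 1 (circles) and within number 2 (triangles). It is given for 20 named interferon response genes, with bars of 1 approximate standard error. Daxx, Irf1, Slfn9 and Gbp2b have circle and triangle together, Ifit1 has them at 6.24 and 0.53, and Ccl5 has them on opposite sides of 0.

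The promoters of these genes are shown because the interferon-stimulated response element, a site of IRF factors, can be looked for in them. Each sequence is the 250 bases before the RefSeq start in GRCm38.p6, written 5′ to 3′ on the strand of the gene, with capitals where GAAANNGAAA was found on either strand. The windows are chr3:142594597-142594846 for Gbp2b and chr19:34640639-34640888 for Ifit1, both on the plus strand, and on the minus strand chr11:82991831-82992080 for Slfn9, chr4:156200819-156201068 for Isg15 and chr12:26456453-26456702 for Rsad2.
Gbp2b: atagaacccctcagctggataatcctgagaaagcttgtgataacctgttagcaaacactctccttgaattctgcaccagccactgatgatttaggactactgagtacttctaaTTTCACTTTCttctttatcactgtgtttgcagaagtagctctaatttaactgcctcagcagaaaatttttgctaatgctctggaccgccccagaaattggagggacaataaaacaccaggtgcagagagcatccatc
Slfn9: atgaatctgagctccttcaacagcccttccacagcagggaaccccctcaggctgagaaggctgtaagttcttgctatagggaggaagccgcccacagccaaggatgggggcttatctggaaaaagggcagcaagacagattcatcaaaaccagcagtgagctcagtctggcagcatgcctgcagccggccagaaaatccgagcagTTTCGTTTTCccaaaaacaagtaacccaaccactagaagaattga
Ifit1: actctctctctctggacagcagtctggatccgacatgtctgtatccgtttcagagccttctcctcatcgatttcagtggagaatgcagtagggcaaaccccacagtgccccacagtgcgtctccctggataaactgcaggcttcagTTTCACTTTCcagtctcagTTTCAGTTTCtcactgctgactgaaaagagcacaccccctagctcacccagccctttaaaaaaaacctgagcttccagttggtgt
Isg15: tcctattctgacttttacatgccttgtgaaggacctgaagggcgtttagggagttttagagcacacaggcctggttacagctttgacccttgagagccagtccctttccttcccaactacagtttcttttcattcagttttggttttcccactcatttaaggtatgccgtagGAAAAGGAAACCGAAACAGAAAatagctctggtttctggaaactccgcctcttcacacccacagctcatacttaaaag
Rsad2: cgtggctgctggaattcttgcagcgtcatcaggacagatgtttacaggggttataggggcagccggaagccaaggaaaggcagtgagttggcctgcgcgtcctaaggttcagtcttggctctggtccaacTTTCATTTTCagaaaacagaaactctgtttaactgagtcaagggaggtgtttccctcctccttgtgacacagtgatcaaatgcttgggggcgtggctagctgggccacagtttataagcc
Matches began 137 bases before the start of Gbp2b, 45 before that of Slfn9 and 120 before that of Rsad2. Ifit1 had 2 matches, at 104 and 85 bases, and Isg15 had 3 that overlap, at 78, 72 and 66 bases. Of the 4 genes with near-equal steps, the core was thus found in Gbp2b and Slfn9. It was not found in any of the 3 promoters that the table gives for Daxx or the 2 for Irf1, and it was found in Ifit1, Isg15 and Rsad2, whose steps were unequal. A match is a description of the letters and not a shown site of binding. Of the genes called higher, 280 had a promoter in the table. Of their 357 promoters, 60 (16.8%) held a match between 250 bases before and 50 after the start. A gene with several promoters counts more than once here. The share was 2.89% for genes called lower (7 of 242), 3.19% for genes tested and 3.44% for all 32851 promoters of the table.

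The first promoter of Irf1 (chr11:53769764-53770013, plus strand) is shown for the gamma-activated site, a palindrome, searched as TTCNNNGAA after the values were seen and set in capitals.
Irf1: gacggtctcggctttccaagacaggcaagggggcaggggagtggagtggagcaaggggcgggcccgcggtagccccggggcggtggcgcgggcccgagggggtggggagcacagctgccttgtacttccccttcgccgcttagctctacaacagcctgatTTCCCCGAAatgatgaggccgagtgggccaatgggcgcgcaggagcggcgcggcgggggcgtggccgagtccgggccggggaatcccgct
The match began 90 bases before the start. This motif reads the same on both strands, and was held by 11.5% of promoters of genes called higher, 6.2% of those called lower, 6.79% of those of genes tested and 8.3% of all promoters.

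Over the list of antiviral effectors, 45 of 76 tested members were called higher and 0 lower, beside 2.65% and 1.63% of all genes tested. Set apart in both numbers were 66 upward and 0 downward, beside 9.61% and 8.4% of all genes tested. Both within-number changes were above 0 for 69 of the 76, and the change was larger in number 1 for 65. The matching shares over all genes were not computed. The 45 called members had medians of 1.42 in number 1 and 0.70 in number 2. The 31 not called had medians of 4.18 and 0.55, and 21 of them were set apart upward in both numbers. A single change per gene leaves unequal steps in the error, so this contrast follows in part from the fit. Mx1, a GTPase against influenza virus, stood at 0.633, 0.0577, 6.81 and 7.51 CPM in mock 1, hpRNA 1, HT-DNA 1 and cGAMP 1, and at 40.5, 34.4, 126 and 148 CPM in number 2. Eif2ak2, the gene of the RNA-dependent kinase PKR, went from 39.2 and 38.5 CPM to 136 in both HT-DNA 1 and cGAMP 1. In number 2 it went from 229.7 CPM in mock and 213 in hpRNA to 333 in HT-DNA and 344 in cGAMP. Ifit1bl1, a relative of Ifit1 whose reads may be shared with its family, had steps of 1.91 ± 0.56 in number 1, where mock 1 and hpRNA 1 had 2 and 6 counts, and 3.27 ± 0.17 in number 2. The difference between them was not called, which does not show that the steps were equal. Cd274, which encodes the checkpoint ligand PD-L1 and was named after its values were seen, had steps of 0.81 ± 0.16 in number 1 and 1.83 ± 0.08 in number 2, a difference that was called. Phf11b rose by 1.53 ± 0.24 over both numbers.

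Among the sensors, 9 of 28 tested members of the cGAS-STING and DNA sensing list were called higher and 0 lower. The shares over all genes tested were 2.65% and 1.63%. Cgas itself stood at 8.87, 7.44, 12.3 and 11.5 CPM in mock 1, hpRNA 1, HT-DNA 1 and cGAMP 1, and at 15.4, 14.8, 20.9 and 20.7 CPM in number 2, a log2 fold change of 0.50 ± 0.08. Arms did not overlap within a number, and the steps were 0.54 and 0.47. Tmem173, the gene of STING, was not called. It lay between 19.1 and 22.2 CPM in all libraries of number 1 and at 21.2 and 21.3 in mock 2 and hpRNA 2, and was higher only in HT-DNA 2 (33.7) and cGAMP 2 (33.0). Members of the Ifi200 family, DNA-binding proteins with near-identical copies, made up 6 of the 9 called. Ifi203 went from 65.6 and 60.1 CPM in mock 1 and hpRNA 1 to 247 and 253, and from 485 and 439.9 in number 2 to 787 and 779. Mndal had changes of 2.28 ± 0.09 and 0.90 ± 0.05. Ifi205 had 1 count in mock 1, 0 in hpRNA 1 and levels of 0.792 and 0.493 CPM in HT-DNA 1 and cGAMP 1, and its log2 fold change was 2.37 ± 0.21 within number 2.

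Of 20 tested genes of RNA sensing, 4 were called higher and 0 lower, beside 2.65% and 1.63% of all genes tested. Tlr3, the endosomal receptor of double-stranded RNA, stood at 0.748, 0.749, 2.59 and 3.18 CPM in mock 1, hpRNA 1, HT-DNA 1 and cGAMP 1. It stood at 10.97, 9.57, 28.6 and 31.5 CPM in number 2, and the steps were 1.93 ± 0.27 and 1.55 ± 0.11. Myd88, an adaptor of Toll-like receptors, changed by 0.35 ± 0.06 and 0.46 ± 0.05. Ddx58, the gene of RIG-I, was not called: it was 6.68 and 7.96 CPM in mock 1 and hpRNA 1, 99.7 and 108 in HT-DNA 1 and cGAMP 1, 229 and 202 in mock 2 and hpRNA 2, and 288 in both HT-DNA 2 and cGAMP 2. Its steps were 3.83 ± 0.09 and 0.42 ± 0.05.

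Of 23 tested genes of the interferon receptors, IRF and STAT factors and their inhibitors, 6 were called higher (2.65% of all genes) and 0 lower (1.63% of all genes). Besides Irf1 these included Batf2, at 2.48, 2.31, 10.5 and 12.8 CPM in mock 1, hpRNA 1, HT-DNA 1 and cGAMP 1 and 26.8, 23.9, 66.9 and 72.8 CPM in number 2. Socs1, a feedback inhibitor of JAK kinases, had steps of 1.16 ± 0.13 and 0.92 ± 0.09. Irf7, which amplifies interferon-alpha expression, was not called, with steps of 3.56 ± 0.12 and 0.60 ± 0.06. Receptor genes had small steps of either sign, such as Ifnar1 at -0.23 and -0.01, and none was called. Cish, a STAT5-induced inhibitor named after its values were seen, had steps of opposite sign, at -0.45 ± 0.14 in number 1 and 1.48 ± 0.14 in number 2, and was not called.

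NF-kB genes had small steps. Of 28 tested members 4 were called higher and 0 lower, against 2.65% and 1.63% of all genes. The median log2 fold change was 0.07 against 0.00 for all genes. Nfkbia, the inhibitor that NF-kB induces, lay at 92.2, 97.1, 106 and 104 CPM in mock 1, hpRNA 1, HT-DNA 1 and cGAMP 1 and at 116, 117, 128 and 124 CPM in number 2. It was set apart upward in both numbers by 0.15 ± 0.04 and 0.11 ± 0.04 and was not called. Tnfaip3, the feedback inhibitor A20, was called and had steps of 0.80 ± 0.11 and 0.57 ± 0.09, from 9.15 and 9.51 CPM in mock 1 and hpRNA 1. Cd40, a receptor of the TNF family, rose by 0.71 ± 0.06 and N4bp1 by 0.38 ± 0.04. Of 31 immediate-early genes 4 were called higher and 1 lower, against 2.65% and 1.63% over all genes. Dusp5, a phosphatase of ERK, went from 18.3 and 20.7 CPM to 38.5 and 39.7 in number 1, and from 45.5 and 44.4 to 75.4 and 78.3 in number 2. Zfp36, the mRNA decay factor tristetraprolin, rose by 0.77 ± 0.08, and Jund fell by 0.40 on the log2 scale (SE 0.06).

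Chemokines and cytokines split by gene. Of 23 tested, 5 were called higher and 0 lower (all genes: 2.65% and 1.63%). Set apart upward in number 1 and downward in number 2 were 5 others, against 1012 of all 13844 genes. Cxcl10, a chemokine for T cells, was 1.73, 1.38, 125 and 139.9 CPM in mock 1, hpRNA 1, HT-DNA 1 and cGAMP 1 and 415, 385, 541 and 584 CPM in number 2, steps of 6.41 ± 0.11 and 0.49 ± 0.05, and was not called. Ccl5 turned around: it was 0.518 and 0.749 CPM in mock 1 and hpRNA 1 against 44.9 and 52.4 in HT-DNA 1 and cGAMP 1, but 120.2 and 121 in mock 2 and hpRNA 2 against 56.6 and 58.1 in HT-DNA 2 and cGAMP 2. Its steps were 6.25 ± 0.15 and -1.07 ± 0.06. Ccl4 and the plasminogen activator gene Plat, named after their values were seen, had steps of 4.09 and -0.49, and of 1.87 and -1.12. Il6 was called higher at 1.33 ± 0.32 but kept the call without only 1 of the 8 libraries, hpRNA 2, with adjusted p up to 0.111 otherwise. Tnfsf10, the death ligand TRAIL, had 1 count in hpRNA 1, 0 in mock 1, 0.740 and 0.932 CPM in HT-DNA 1 and cGAMP 1, and a step of 2.20 ± 0.16 in number 2. Cxcl9, named after its values were seen, was at most 0.548 CPM in number 1 and rose from 1.36 and 1.13 to 8.72 and 8.98 CPM in number 2. Csf1, the macrophage growth factor gene, had small and even steps, from 2108 and 2150.1 CPM to 2772 and 2822 in number 1 and from 3450.0 and 3425 to 4316 and 4238 in number 2, a log2 fold change of 0.35 ± 0.02.

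Of 26 tested antigen presentation genes 11 were called higher and 0 lower, beside 2.65% and 1.63% of all genes. Their median steps were 0.18 in number 1 and 0.32 in number 2. The difference between numbers was called for 10 of the 26, against 19.5% of all genes tested. Of these 10, 3 had the smaller step in number 2. Tap1, a subunit of the peptide transporter, stood at 62.0, 65.2, 98.9 and 99.3 CPM in mock 1, hpRNA 1, HT-DNA 1 and cGAMP 1 and at 176, 165, 298 and 283 CPM in number 2. Nlrc5, the transactivator of class I genes, rose by 0.50 ± 0.06, and H2-T22, a class Ib gene with close copies, by 0.72 ± 0.08. H2-T22 had steps of 0.82 in number 1 and 0.66 in number 2, and Tapbp, the gene of the peptide-loading factor tapasin, of 0.69 and 0.29. Psmb8, an immunoproteasome subunit named after its values were seen, had steps of 0.26 ± 0.09 and 0.82 ± 0.08. Of 27 genes of cell death and inflammasomes 4 were called higher and 0 lower, beside 2.65% and 1.63% of all genes. Mlkl, the effector of necroptosis, went from 52.0 and 47.4 CPM to 83.8 and 88.3 in number 1 and from 100.5 and 103 to 124 and 129 in number 2.

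**Figure D5:**
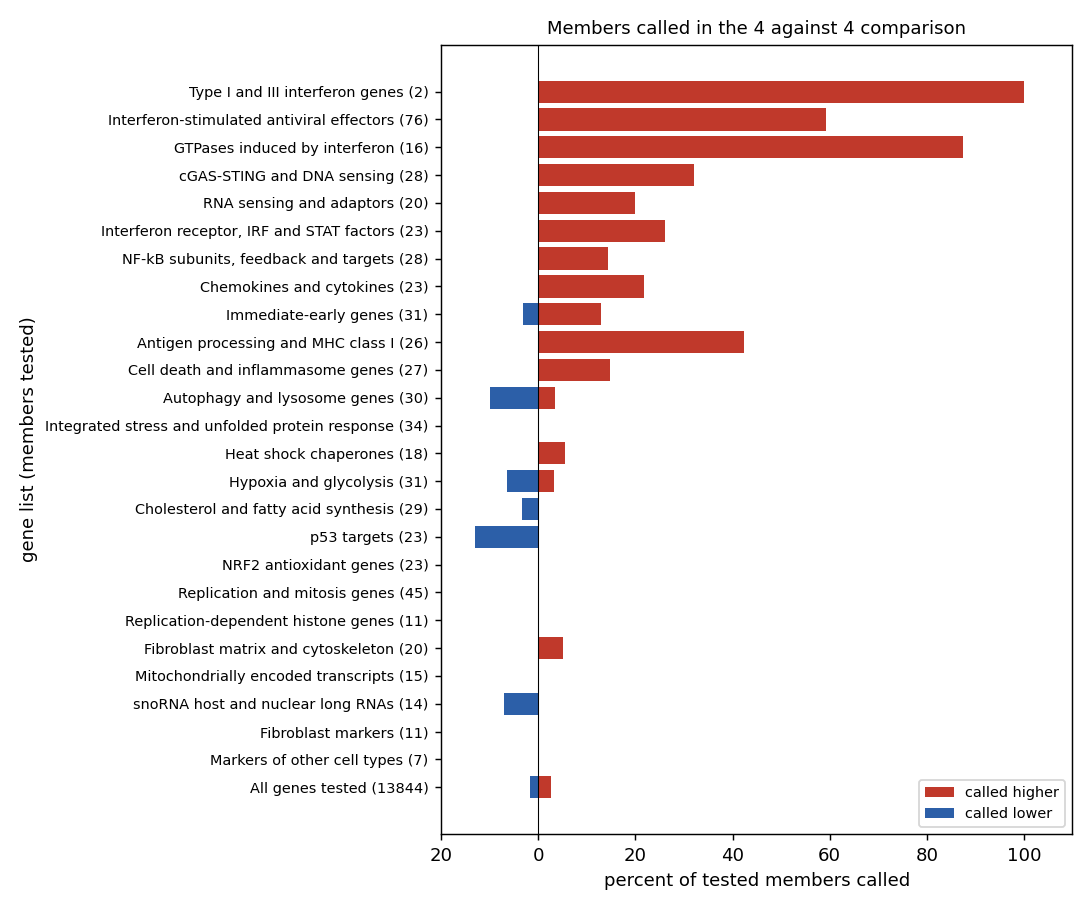
Share of the tested members of each gene list that were called higher (red, to the right) or lower (blue, to the left) in HT-DNA and cGAMP, with the number tested in brackets and all 13844 genes in the lowest bar. Interferon-induced GTPases reach 14 of 16 and antiviral effectors 45 of 76, while replication, antioxidant, histone and mitochondrial lists hold no called gene. Over all genes tested 2.65% were called higher and 1.63% lower, so 0 in lists this small is near that share.

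Genes called lower had small changes. Of the 8 genes named for their fall, the one with the largest smaller step was Mnt (ENSMUSG00000000282, chr11:74830920-74845725, plus strand), which encodes a repressor that pairs with MAX and opposes MYC. It stood at 44.6 CPM in mock 1, 44.0 in hpRNA 1, 27.4 in HT-DNA 1 and 25.5 in cGAMP 1, and at 19.6, 23.6, 13.2 and 13.1 CPM in mock 2, hpRNA 2, HT-DNA 2 and cGAMP 2. The HT-DNA and cGAMP libraries were the lower ones in each number, by 0.75 ± 0.08 and 0.72 ± 0.10 on the log2 scale in size. Lpin1, a phosphatidate phosphatase gene, went from 44.3 and 44.2 CPM to 30.2 and 31.1 in number 1, and from 28.3 and 25.1 to 17.8 and 15.0 in number 2. Sesn3, a stress-induced inhibitor of mTORC1, had a log2 fold change of -0.58 ± 0.10, and Fam171b one of -0.55 ± 0.08. Fbxl20, an F-box gene, fell mostly in number 1, at -1.55 ± 0.15 against -0.59 ± 0.20, a difference that was called. Mturn did likewise, at -1.59 ± 0.15 against -0.55 ± 0.20, and lost its call without HT-DNA 1 or cGAMP 1 (adjusted p up to 0.0571). Slc25a27, at -0.60 ± 0.12, and Rgs12, at -0.49 ± 0.10, kept their calls without only 2 and 3 of the 8 libraries, with adjusted p up to 0.0913 and 0.0942 otherwise. Ulbp1, a ligand gene of the NKG2D receptor named after its values were seen, went from 194 and 198 CPM to 140.1 and 138 in number 1, and from 116 and 115 to 89.4 and 83.8 in number 2.

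Outside the immune lists few members were called. Of 30 genes of autophagy and lysosomes 1 was called higher and 3 lower, beside 2.65% higher and 1.63% lower of all genes tested. The lower ones included Calcoco1, an adaptor of autophagy, with steps of -1.25 ± 0.10 and -0.46 ± 0.13, and Ulk1, the kinase that starts autophagosome formation, at -0.45 ± 0.07. Npc1, a lysosomal cholesterol exporter, was higher by 0.27 ± 0.05 and lost its call without hpRNA 1 (adjusted p 0.0511). Of 23 p53 targets 0 were called higher and 3 lower, of which Trp53inp1, at -0.58 ± 0.10, lost its call without HT-DNA 1 (adjusted p 0.0540). Ccng1 at -0.17 ± 0.04 and Zmat3 at -0.25 ± 0.06 kept theirs without 0 and 1 of the 8 libraries, with adjusted p up to 0.121 and 0.102 otherwise. Neat1, a nuclear long RNA that forms paraspeckles, fell from 666 and 581 CPM to 494 and 470.5 in number 1, and from 439 and 478 to 357 and 363 in number 2.

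Hypoxia and glycolysis genes had steps of opposite sign. Of 31 tested, 22 were set apart upward in number 1 and downward in number 2, against 1012 of all 13844 genes, and the medians were 0.21 and -0.15. Vegfa, the angiogenic factor gene named after its values were seen, stood at 313, 320.1, 427 and 428 CPM in mock 1, hpRNA 1, HT-DNA 1 and cGAMP 1 and at 427, 410.1, 309 and 328 CPM in number 2. Called members were Hif1a at 0.18 ± 0.04, Bnip3l at -0.16 ± 0.04 and Pdk1 at -0.39 ± 0.08, of which the first and the second kept the call without only 1 library each and Pdk1 without 3, with adjusted p up to 0.108, 0.145 and 0.0665 otherwise. Of 29 genes of cholesterol and fatty acid synthesis 13 were set apart upward and then downward in this way. Insig1, which retains the sterol sensor in the endoplasmic reticulum, was the 1 called, and fell in both numbers, at -0.18 ± 0.04 and -0.47 ± 0.04. Heat shock chaperones had 1 of 18 called (Dnaja1, 0.19 ± 0.04, kept without 1 library only, adjusted p otherwise up to 0.131), and fibroblast matrix genes 1 of 20 (Timp1, 0.28 ± 0.06, kept without 3, otherwise up to 0.126). Bak1, a death gene at 0.21 ± 0.04, kept its call without 4 (otherwise up to 0.0596). No member was called by edgeR among 34 genes of the integrated stress and unfolded protein responses, 23 NRF2 genes, 45 replication and mitosis genes, 11 histone genes or 15 mitochondrial transcripts. Over all genes tested 2.65% were called higher and 1.63% lower, so 0 or 1 call in lists this small is near that share. Of the 34 stress genes 12 were set apart upward in number 1 and downward in number 2, and 2 the reverse way. For the 15 mitochondrial transcripts these counts were 0 and 9, against 1012 and 1007 of all 13844 genes.

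The labels were also compared one with another, in an edgeR fit with 1 term per label and the number as a block. These comparisons share libraries with one another and with the pooled arms, and are no independent support. HT-DNA against mock gave 14 genes (0.101%), all higher, and HT-DNA against hpRNA 22 higher and 1 lower (0.166%). cGAMP against mock gave 22 higher and 1 lower (0.166%), and cGAMP against hpRNA 37 higher and 2 lower (0.282%). For Daxx the log2 fold changes in this order were 0.94, 1.05, 0.97 and 1.08, each with an SE of 0.05. Irf1 had 1.21, 1.29, 1.33 and 1.41, and Gbp2b had 2.45, 2.41, 2.39 and 2.35. Daxx, Irf1 and Gbp2b were called in all 4 of these comparisons. Ifit1 had 2.54, 2.66, 2.73 and 2.84, with SEs from 1.48 upward, and was called in none of the 4. Within the arms, edgeR called 0 genes for cGAMP against HT-DNA, with 250 at an unadjusted p under 0.05, and 0 for hpRNA against mock, with 316. The likeness of these labels chose the arms, so these counts of 0 are a description.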

How the data were processed

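RNA of 12 libraries was sequenced in pairs of 150 bases, per the labels' protocols. The authors deposited 1 table of raw counts by Ensembl gene per library, made with HISAT2 and HTSeq on mm10, per the submitters' processing notes. No version, annotation release or strand setting is given in the sources used here, and genes that overlap or are near-identical may share reads. Of 54532 genes, 54495 matched GENCODE M21. Promoters come from RefSeq (GRCm38.p6), with 52 of 67 named genes matched.

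Tests on the 8 libraries used edgeR 4.0.16 (R 4.3.3): default filter on low counts, TMM scaling and quasi-likelihood tests, with calls at a p under 0.05 after Benjamini-Hochberg adjustment. CPM are counts per 1000000 on the TMM scale, except in list sums, which use library totals. Errors are approximate standard errors, taken as the size of the log2 fold change divided by the square root of edgeR's quasi-likelihood F. They were not fitted directly and can be off where a change is near 0. The number that ends the title was set as a block together with the comparison. Deviations of same-numbered libraries from label means correlated at 0.485 to 0.805 for every pair among mock, hpRNA, HT-DNA and cGAMP. G3-YSD and HSV were not checked in this way. The labels do not state that equal numbers are pairs. DESeq2 1.42.0, other scalings and left-out libraries were alternatives, and those leaving out a whole label were added after seeing the data.

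The comparison, its members, the gene lists and the rules were chosen with earlier results of these data known. Named genes have no predicted-gene symbol, are not annotated as pseudogenes and reach at least 5 CPM in the higher arm. They are the 12 higher and 8 lower called genes with the largest smaller within-number change, 3 called members or fewer from each list, and 16 genes with a value given in any case. 1 other gene that this rule names is not reported here.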

Additional observations from a re-analysis of the deposited data

Results flagged for a closer look

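For 22 of the 67 named genes the log2 fold change of HT-DNA and cGAMP against mock and hpRNA differed between number 1 and number 2, by edgeR's test of the interaction at an adjusted p under 0.05. Values are the change in number 2 minus that in number 1. For 18 of these the change was smaller in size in number 2, and the matching share over all genes was not computed. Among antiviral genes and their regulators the differences were -5.71 for Ifit1, -5.08 for Rsad2, -4.43 for Isg15, -3.41 for Ddx58, -2.96 for Irf7, -2.47 for Mx1, -1.20 for Eif2ak2 and -0.81 for Batf2. Chemokines and cytokines differed by -7.32 for Ccl5, -5.91 for Cxcl10 and -2.51 for Il6. DNA-binding sensors and GTPases differed by -1.39 for Mndal, -1.23 for Ifi203 and -1.24 for Iigp1, and the necroptosis effector Mlkl by -0.48. Genes that fell less in number 2 were Mturn at 1.04, Fbxl20 at 0.96 and Calcoco1 at 0.79. Genes that fell more there were Pdk1 at -0.41, Insig1 at -0.29 and Zmat3 at -0.29. Tmem173, the gene of STING, differed by 0.71, with a change in number 2 only. The spread behind these tests is that between the labels chosen for being close, which keeps their error small, so the differences are a description, and what the number marks is not in the labels. Labels of 2 libraries were too few to look for single libraries far from the rest of their group.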

How the results depend on the processing

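With no replicate block edgeR called 0 genes higher and 0 lower (1120 at an unadjusted p under 0.05), and 0 in each comparison of labels, with 248 to 448 at an unadjusted p under 0.05. A fit of all 12 libraries with the block also called 0 and 0 (442 at an unadjusted p under 0.05). Averaging the changes within each number, with the replicate block in arm-by-number terms, called 1731 higher and 1372 lower. Without the filter on low counts 840 were higher and 671 lower, and the label comparisons gave 178 for HT-DNA against mock, 210 for HT-DNA against hpRNA, 277 for cGAMP against mock and 232 for cGAMP against hpRNA. From their own 4 libraries alone these gave 6, 11, 6 and 81. Upper quartile scaling gave 375 lower, moved the median of all genes to -0.02 and the share higher among called genes from 61.9% to 43.4%. DESeq2 gave 519 higher and 297 lower, and relative log expression scaling 377 and 216. Leaving out 1 library gave 194 to 325 higher and 61 to 206 lower. Genes set apart then numbered 1593 to 1926 upward and 1393 to 1877 downward. The counts set apart could not fall, since 1 library fewer had to meet the rule, so they say nothing of stability. The alternatives added after seeing the data left out a whole label and gave 82 higher and 24 lower without hpRNA, 138 and 26 without mock, 113 and 26 without cGAMP, and 124 and 22 without HT-DNA.

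Ccl5 reversed, from 0.86 to -0.19 with no replicate block and to -0.034 in the fit of 12 libraries. Of 58 called named genes 44 kept their call without each of the 8 libraries in turn, and 14 lost it without at least 1. All 58 lost it with no replicate block, and likewise in the fit of 12 libraries. Leaving out a whole label ended the call for 22 (hpRNA), 22 (mock), 20 (cGAMP) and 19 (HT-DNA) of them. Counts within each number and of the difference between numbers stayed within 1.5 times under the alternatives run. The cause of these moves was not tested. Having 2 libraries per label limits the precision, and genes near 0 in mock 1 and hpRNA 1 carry wide errors there.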

Other observations

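Some genes outside the lists were named after their values were seen. Klhl24 and Pdcd4, a kelch adaptor gene and a gene of an inhibitor of translation, were called lower with nearly all of the fall in number 1. Klhl24 stood at 26.7 CPM in mock 1 and 29.1 in hpRNA 1, and between 4.95 and 7.45 CPM in the other 6 libraries. Pdcd4 stood at 18.02 and 17.5 CPM in mock 1 and hpRNA 1 and between 3.89 and 4.91 in the others. In both Klhl24 and Pdcd4, mock 2 and hpRNA 2 were thus near the level of HT-DNA 1 and cGAMP 1. Irs2, an insulin receptor substrate, fell in both numbers, at -0.64 ± 0.06 and -0.36 ± 0.07. Ncl, the gene of the nucleolar protein nucleolin, was called higher with steps of 0.41 ± 0.03 and 0.08 ± 0.03, and the nucleolar helicase gene Ddx21 with 0.45 ± 0.04 and 0.09 ± 0.03. Plaur, the urokinase receptor gene, had even steps of 0.53 ± 0.04 and 0.42 ± 0.04.

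In the 4 libraries outside the comparison, scaled over all 12 libraries, Daxx stood at 305 CPM in G3-YSD 1 and 312 in HSV 1, and at 21.4 in G3-YSD 2 and 22.7 in HSV 2. Ifnb1 stood at 25.7 and 23.3 CPM in G3-YSD 1 and HSV 1, and at 4.21 and 4.07 in G3-YSD 2 and HSV 2. There the libraries of number 1 were the higher ones, the reverse of the order in the 8 libraries compared.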
